A study of Mus musculus with 3 samples.

Results

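Melanosomes are moved by small GTPases of the Rab family, by adaptors and by myosin motors, and 7 genes of this machinery were followed in sheets of retinal pigment epithelium (RPE), the pigmented layer behind the photoreceptors. They were the GTPases Rab27a, Rab32 and Rab38, the adaptors Mlph and Myrip, and the myosins Myo5a and Myo7a. A mouse probe was assigned to a gene when the RefSeq accession printed for its spot belonged to that gene. This gave 8 of 35078 mouse probes and 7 of 15597 named genes. Myo5a had 2 probes and each of the other genes had 1.

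The samples were 3 preparations of RPE from C57BL/6 mice aged 2.5–3 months by the labels, described as independent biological replicates, in a single group with no treatment and no second condition. The methods name the substrain C57BL/6 J and give an age slightly under that range. The cornea, iris and retina had been removed and the RPE detached with trypsin. The sources used here do not state how many mice were combined in a sample. Amplified RNA from each sample was hybridised to 1 oligonucleotide slide and scanned in 1 colour. A value was therefore read against the 94 spots of the class mCN on the same slide, taken here as negative controls, and levels of single probes were not ranked against each other, since probes differ in how well they bind.

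As background, a Rab GTPase in its active form binds the organelle membrane and recruits an adaptor, which in turn holds a myosin that walks on actin. In melanocytes of the skin, Rab27a recruits melanophilin (Mlph), and melanophilin holds myosin Va (Myo5a). In the RPE, Rab27a recruits Myrip, which holds myosin VIIa (Myo7a), and melanosomes are thereby moved into the apical processes that surround the photoreceptor outer segments. Rab32 and Rab38 act earlier, in the delivery of pigment enzymes to the maturing melanosome. Mouse coat colour mutants of these genes are known as ashen (Rab27a), leaden (Mlph), dilute (Myo5a) and chocolate (Rab38), and Myo7a is mutated in shaker1 mice.

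The RNA of the RPE set, Rab27a, Myrip and Myo7a, was read above the negative controls on all 3 arrays. The adaptor and the motor of the melanocyte set, Mlph and Myo5a, were not, and neither were Rab32 and Rab38. In limma, 3 of 8 probes were called above the 95th percentile of the mCN spots of their array, where 25.5% of all mouse probes were called. Counted by gene, 3 of 7 were called, against 39.8% of all named genes. A count of this size is close to that background and is not read as a trait of the members. Which genes were called is given as a description only. Rab27a belongs to both sets, Mlph rests on a single probe, and a difference between the sets was not tested. The median level of the 8 probes was -0.12 on the log2 scale relative to the threshold. It was -0.74 for all mouse probes and -0.53 for the named ones, a description only, as the probes differ.

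The preparations were checked against markers of RPE and of other cells of the eye. Of 11 RPE markers 10 were called, the exception being the chloride channel Best1 (-0.74 ± 0.10, log2 above the threshold, SD, n = 3). Replicate 3 was scanned in a separate session. Corneal genes stood far apart between the arrays: the corneal keratin Krt12 was at -0.27, 6.99 and 8.21 on replicates 1, 2 and 3, and 0, 5 and 6 of the 7 genes of a list of iris, ciliary and corneal epithelium lay above the threshold, with summed intensities of 411, 54176 and 70807. Rod genes above the threshold numbered 3, 4 and 8 of 11. Each member is given below array by array for this reason, and the same 3 probes were called when replicate 1, 2 or 3 was left out.

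Sequence was examined at the starts of the members, since the RPE factor MITF is known to bind E-box letters in genes of pigment cells. RefSeq windows (build GRCm38.p6, from 250 bases before to 50 bases after a start) were found for 6 of the 7 genes, 8 windows in all, with 2 each for Rab27a and Myo7a. CATGTG, searched on both strands and thus also as CACATG, was in 1 of the 8 windows and in 14.2% of 32851 windows of all genes. CACGTG, which reads the same on both strands, was in 2 of the 8 and in 7.15% of all, and TAATCC, the core letters bound by OTX2 and CRX, was in 0 of the 8 and in 7.06% of all. The 3 windows with a match are shown, because they belong to 2 called genes and to 1 whose spot was not found on any array. Capitals mark the matches, which begin at base 5 in Rab27a, at bases 112 and 141 in Myo7a and at base 203 in Mlph, counted from the 5′ end of the window.
Rab27a, downstream of its 2 starts, chr9:73063898-73064197, plus strand: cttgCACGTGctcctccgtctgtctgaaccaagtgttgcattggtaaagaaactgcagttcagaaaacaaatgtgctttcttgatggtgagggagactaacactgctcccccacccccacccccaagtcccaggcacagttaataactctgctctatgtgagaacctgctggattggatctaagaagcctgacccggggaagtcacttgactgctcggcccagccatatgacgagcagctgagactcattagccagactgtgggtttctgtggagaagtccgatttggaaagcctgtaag
Myo7a, downstream of its 2 starts, chr7:98109199-98109498, minus strand: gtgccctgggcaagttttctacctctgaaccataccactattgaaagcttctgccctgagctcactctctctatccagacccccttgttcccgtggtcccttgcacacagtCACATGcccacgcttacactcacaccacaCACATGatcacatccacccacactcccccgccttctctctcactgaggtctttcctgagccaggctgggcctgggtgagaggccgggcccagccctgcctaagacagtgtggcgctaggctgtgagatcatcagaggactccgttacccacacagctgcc
Mlph, chr1:90914850-90915149, plus strand: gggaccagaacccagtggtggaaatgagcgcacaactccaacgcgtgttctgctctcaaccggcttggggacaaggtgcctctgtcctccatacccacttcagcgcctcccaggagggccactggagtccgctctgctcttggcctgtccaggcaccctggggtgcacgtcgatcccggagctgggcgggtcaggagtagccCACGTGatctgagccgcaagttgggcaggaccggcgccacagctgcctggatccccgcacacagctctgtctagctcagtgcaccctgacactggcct
A match is a description of letters and not a binding site, and the arrays do not tell which start a transcript came from.

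Rab27a, the GTPase that marks the mature melanosome for transport, was read by probe mMC008005 (accession NM_023635). Its intensity, the median foreground minus the median local background of the spot, was 42043, 21619 and 15523 scanner units on replicates 1, 2 and 3. The 95th percentile of the mCN spots was 133, 72.4 and 53.9 on the same arrays, so the spot stood at 317, 299 and 288 times that threshold. None of the 94 control spots reached it on any array (0 of 94 on each), and the spot was saturated on 0 arrays. After normalisation the level was 7.56, 7.42 and 7.40 above the threshold on the log2 scale, with a mean of 7.46 ± 0.09 (SD, n = 3, 95% interval 7.27–7.65, limma adjusted p = 7.71e-07). The arrays differed little in this gene: its SD was smaller than the median SD of the called probes (0.22), and 11.7% of them had a smaller one.

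**Figure D1:**
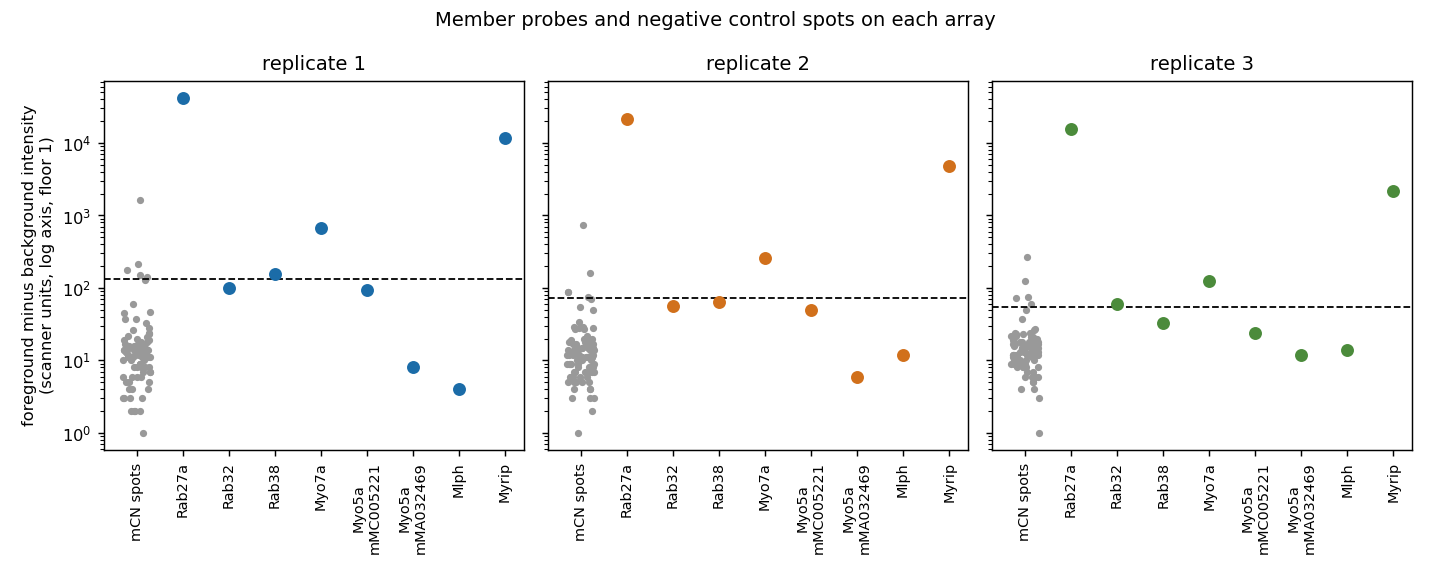
Foreground minus background intensity (scanner units, log axis, values under 1 drawn at 1) of the 8 member probes on replicates 1, 2 and 3 (coloured points), beside the 94 mCN spots of the same array (grey points, spread sideways for visibility). The dashed line is the 95th percentile of the mCN spots (133, 72.4 and 53.9). Rab27a, Myrip and Myo7a lie above the line on each array, Rab32 and Rab38 lie near it, and Mlph and the second Myo5a probe lie within the bulk of the controls. Heights of different probes are not comparable with each other.

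Myrip, also called Slac2-c, links Rab27a to myosin VIIa and to actin. Its probe mMC014296 (NM_144557) read 11784, 4777 and 2143 units, which was 88.9, 66.0 and 39.8 times the threshold. No control spot reached these values on any array (0 of 94 on each). The normalised level was 5.59, 5.28 and 4.76 above the threshold, a mean of 5.21 ± 0.41 (SD, n = 3, 95% interval 4.78–5.64, limma adjusted p = 4.81e-06). Replicate 1 was the highest and replicate 3 the lowest, and 86.5% of the called probes had a smaller SD. Against its own mean the probe was at 0.38 on replicate 1 and -0.44 on replicate 3.

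Myo7a, the unconventional myosin that carries RPE melanosomes and whose human gene is mutated in Usher syndrome type 1B, was nearer to the controls. Probe mMC024536 (NM_008663) read 664, 262 and 124 units, or 5.01, 3.62 and 2.30 times the threshold. At or above it were 1, 1 and 2 of the 94 control spots. The normalised level was 1.60, 1.34 and 0.94, a mean of 1.29 ± 0.33 (SD, n = 3, 95% interval 0.93–1.65, limma adjusted p = 6.76e-04). All 3 arrays lay above the threshold, replicate 3 least. With the 99th percentile of the control spots as the threshold, 3 of 8 member probes were called, where 18.2% of all mouse probes were. Myo7a was then at 0.47 ± 0.55 (SD, n = 3, limma adjusted p = 0.0487, range over the alternatives 4.66e-07 to 0.0487). Its SD there was larger than its level. In the settings at both ends of this range, practically the same variance was given to all probes. Those p-values of Myo7a therefore do not measure its own SD. With 2 of the 94 control spots at or above it, Myo7a did not pass this threshold on replicate 3. The spot was 18.4, 8.73 and 4.0 times the SD of its local background pixels.

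Photoreceptors are known to contain myosin VIIa as well. Rod genes above the threshold were 3 of 11 on replicate 1, where Myo7a was highest, and 8 of 11 on replicate 3, where it was lowest, and the part of rods in the level of Myo7a was not tested. Without replicate 3 the level was 1.62 (limma adjusted p = 2.24e-05), and without replicate 1 it was 1.0 (adjusted p = 0.00318). Rab27a, Myrip and Myo7a were all highest on replicate 1, where none of the corneal genes passed the threshold. The called RPE markers were divided in this. Rdh5 was at 8.79, 8.40 and 8.19 on replicates 1, 2 and 3, likewise highest on replicate 1. The same order was seen for Rlbp1 (7.24, 7.09 and 6.84) and Stra6 (4.07, 3.64 and 2.75). Rgr, Rpe65, Ttr, Slc16a8, Lrat, Mitf and Otx2 were not highest on replicate 1. Rpe65 was at 7.69, 8.09 and 7.88, lowest on replicate 1. The part of corneal cells in the levels of the members was not tested. In tissue of mixed composition, fewer cells of a type and less RNA per cell cannot be told apart.

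**Figure D2:**
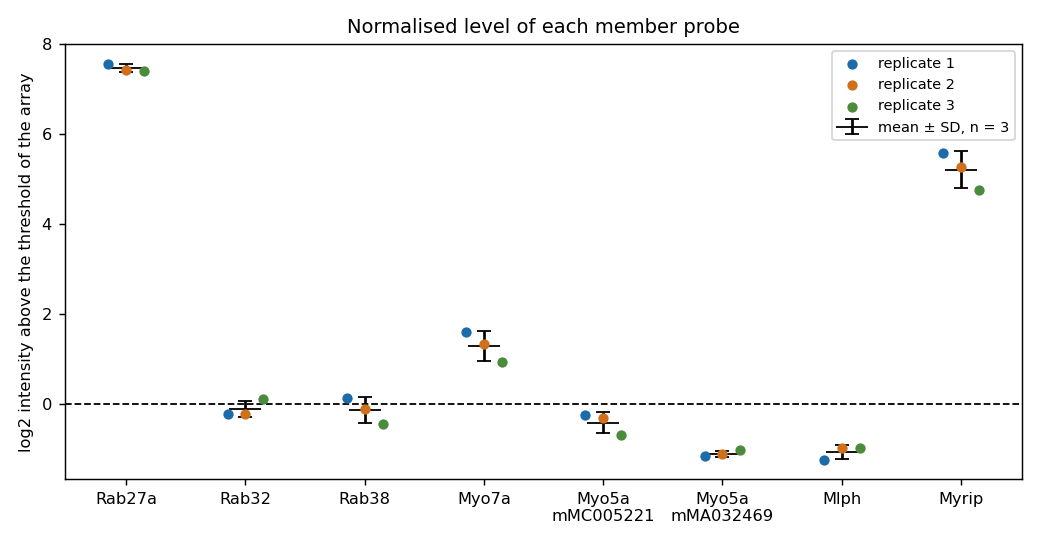
Normalised log2 intensity above the threshold of the array (vertical axis) for the 8 member probes, with points for replicates 1, 2 and 3 and a bar for the mean ± SD (n = 3). The dashed line at 0 is the 95th percentile of the mCN spots. Rab27a (mean 7.46), Myrip (5.21) and Myo7a (1.29) are above 0 on every array, the points of Rab32 and Rab38 straddle 0, and both Myo5a probes and Mlph are below 0 on every array.

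Rab38, the GTPase mutated in chocolate mice, gave values at the edge of detection. Probe mMC008637 (NM_028238) read 158, 64 and 33 units, and 3, 6 and 7 of the 94 control spots were at or above it. It passed the threshold on replicate 1 and not on replicates 2 and 3, at 0.14, -0.10 and -0.44, with a mean of -0.13 ± 0.29 (SD, n = 3, 95% interval -0.46 to 0.19), and was not called. The spot was nevertheless 12.2, 5.33 and 2.36 times the median control spot, and the scanner software found it on all 3 arrays.

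Rab32, its close relative, which is known to take over part of the work of Rab38 in melanocytes, read 99, 56 and 60 units on probe mMC007268 (NM_026405). Of the control spots 6, 6 and 5 were at or above it. The level was -0.21, -0.21 and 0.11, a mean of -0.11 ± 0.19 (SD, n = 3, 95% interval -0.35 to 0.14), and the probe was not called. The arrays fell the other way than for Rab38: replicate 3 was the highest for Rab32 and the lowest for Rab38. Both probes were called when the 90th percentile of the control spots was taken as the threshold, Rab32 at 0.58 (limma adjusted p = 0.00353, range over the alternatives 0.00353–1) and Rab38 at 0.55 (adjusted p = 0.0174, range 0.0174–1), where 38.6% of all mouse probes were called. These 2 transcripts were thus not detectable at the main threshold, which does not show that they were absent.

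Myo5a, the dilute myosin, had 2 probes with the same accession (NM_010864). The first, mMC005221, read 94, 50 and 24 units, with 6, 8 and 11 of the control spots at or above it, and its level was -0.24, -0.30 and -0.68, a mean of -0.41 ± 0.24 (SD, n = 3). The second, mMA032469, read 8, 6 and 12 units, with 72, 81 and 66 of the control spots at or above it, and its mean level was -1.10 ± 0.07. Neither was called, and no array passed the threshold on either. The first probe was found by the scanner software on all 3 arrays and the second on none. The place of either probe within the transcript was not stated in the files or labels.

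Mlph, the melanocyte adaptor, read 4, 12 and 14 units on its probe mMC009310 (NM_053015). Of the control spots 85, 48 and 48 of 94 were at or above it, so it lay at or below the middle of the controls on each array. Its level was -1.23, -0.97 and -0.98, a mean of -1.06 ± 0.15 (SD, n = 3, 95% interval -1.28 to -0.84). The spot was marked as not found on all 3 arrays, as were 4242 of the mouse probes (12.1%). A single dim probe gives no measure of how well it would bind its transcript.

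The melanocyte set was read beside markers of melanocytes, which lie in the choroid next to the RPE. Of 5 such genes 1 was called, the receptor Kit at 0.50 ± 0.25 (limma adjusted p = 0.0163), while Mc1r (-0.82 ± 0.31), Ednrb (-0.54 ± 0.31) and Foxd3 (-1.10 ± 0.08) were among those not called. Their summed intensity was 589, 338 and 202 units. In limma none of the 7 endothelial markers (0 called, 0 at an unadjusted p under 0.05) and none of the 5 macrophage and leukocyte markers (0 called, 0 at an unadjusted p under 0.05) were called. The haemoglobin gene Hba-a1 was at 7.04 ± 0.13. The part of these cells in the levels of the members was not tested.

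A cut at 500 units of the deposited normalised intensity, without a test, gave the same 3 probes on every array. Rab27a stood at 91196, 78661 and 78399 normalised units and Myrip at 25561, 17381 and 10823. Myo7a was the nearest above the cut, at 1440, 953 and 626, and Rab38 the nearest below on replicate 1, at 343, 233 and 167. Rab32 followed at 215, 204 and 303. Of 34288 mouse probes in that table, 21.2% passed the cut on all 3 arrays.

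Around the members, the partners of Rab27 were called in 5 of 15 genes (33.3%, against 39.8% of all named genes), with a median level of -0.48 over their probes against -0.53 over all named mouse probes. Both subunits of the geranylgeranyl transferase that attaches the lipid anchor of Rab proteins were called, Rabggtb at 5.26 ± 0.26 and Rabggta at 2.91 ± 0.30 on 1 of its 2 probes. Of the synaptotagmin-like proteins, which bind active Rab27, Sytl2 was at 2.70 ± 0.21 on 1 of its 3 probes and Sytl3 at 0.83 ± 0.15 on 1 of 2. Sytl5 (-0.98 ± 0.05), Rph3al (-0.92 ± 0.09) and Chm, the escort protein lost in choroideremia (-0.80 ± 0.05), were not called. Rab27b, the paralogue of Rab27a, was at -0.97, -0.05 and 0.11 on the 3 arrays and was not called. It was named for its kinship, outside the rule for named genes.

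Genes that regulate Rab32 and Rab38 or carry their cargo were called in 23 of 32 cases (71.9%), with a median level of 0.41 over their probes. The 4 with the largest statistic were the adaptor subunit Ap3d1 (5.73 ± 0.07), whose loss gives mocha mice, and the BLOC-1 subunits Dtnbp1 (5.18 ± 0.11), Bloc1s1 (4.66 ± 0.11) and Bloc1s5 (4.75 ± 0.13). Hps1 and Hps4, the complex that activates Rab32 and Rab38, were called at 1.02 ± 0.11 and 2.31 ± 0.14. These were named after their values were seen. The effector Ankrd27 (-1.02 ± 0.09), the lysosomal regulator Lyst of beige mice (-1.02 ± 0.13) and the adaptor subunit Ap1g1 (-0.74 ± 0.10) were not called.

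**Figure D3:**
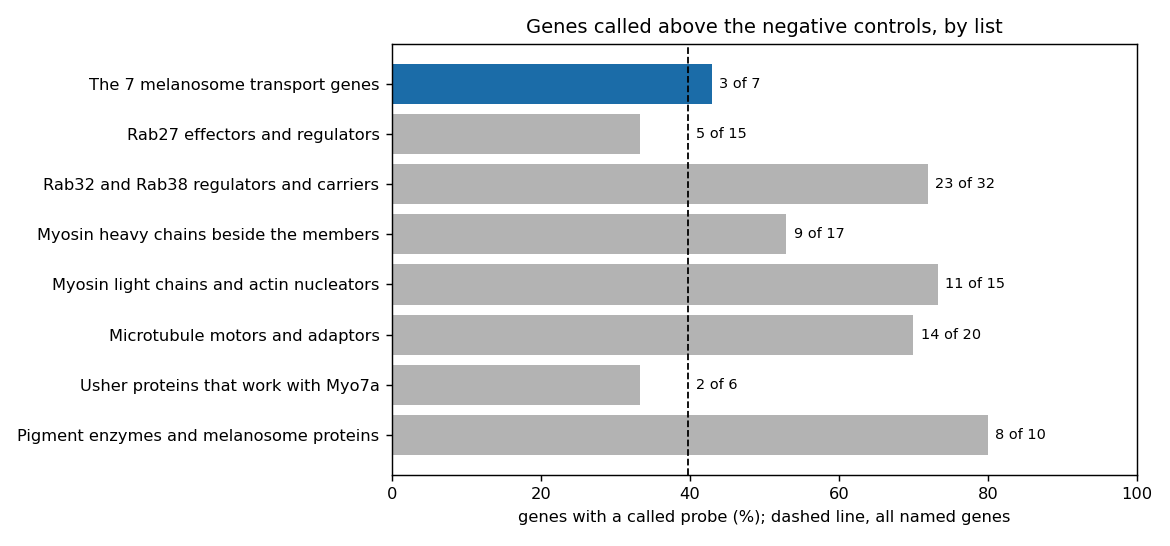
Percentage of genes with a called probe (horizontal axis) among the 7 melanosome transport genes (blue) and 7 lists of related genes (grey), with the number called of the number on the array beside each bar. The dashed line is the 39.8% called of all 15597 named genes. The members stand at 3 of 7, near the line, and the pigment genes at 8 of 10.

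Of the other myosin heavy chains 9 of 17 were called (52.9%), with a median level of -0.41 over their probes. Myo5b, the relative of Myo5a that moves recycling endosomes, was at 3.88, 3.69 and 3.72, a mean of 3.76 ± 0.10. The non-muscle myosin Myh14 was at 4.06 ± 0.07, the class I myosin Myo1d at 3.65 ± 0.13 on 1 of its 2 probes and Myo18a at 2.38 ± 0.03. Myo1g (-0.95 ± 0.03) and Myo3a (-0.97 ± 0.06) were among those not called. Myo7b, the paralogue of Myo7a, was at -0.80 ± 0.10 and was not called either (named for its kinship).

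Light chains of myosins, actin nucleators and the Rabs that work with them were called in 11 of 15 cases (73.3%), with a median level of 1.75. The light chains Myl6 and Myl12b were at 6.44 ± 0.23 and 5.72 ± 0.06, calmodulin 2 (Calm2), which binds the neck of unconventional myosins, at 4.64 ± 0.02, and Rab11b, of recycling endosomes, at 7.18 ± 0.29. Melanoregulin (Mreg), the product of the dilute suppressor gene, was at -1.03 ± 0.14, and the actin nucleators Fmn1 (-1.0 ± 0.15) and Spire1 (-0.83 ± 0.17) were not called. Another nucleator of the list, Spire2, was called at 3.68 ± 0.53 (named outside the rule).

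Subunits of microtubule motors, which bring organelles over long distances, together with their adaptors and small GTPases such as Rab7 and Arl8b, were called in 14 of 20 cases (70%), with a median level of 1.21. The dynactin subunit Dctn2 was at 5.69 ± 0.12, the kinesin Kif3b at 3.94 ± 0.13, the dynein heavy chain Dync1h1 at 3.20 ± 0.19 and the kinesin light chain Klc1 at 2.84 ± 0.09. Rab1a (-1.22 ± 0.11), Dync1i1 (-1.12 ± 0.11) and the neuronal kinesin Kif5a (-0.75 ± 0.11) were not called.

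The Usher proteins, which work with Myo7a in the inner ear and the retina, were called in 2 of 6 cases (33.3%), with a median level of -0.88. The scaffold harmonin (Ush1c) was at 1.02 ± 0.13 and the protocadherin Pcdh15 at 0.75 ± 0.18, each on 1 of 2 probes. Cdh23 (-0.75 ± 0.19), Clrn1 (-1.05 ± 0.21) and Ush1g (-0.55 ± 0.28) were not called. Neither gene passed the test against the 99th percentile.

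Of the melanosome's own enzymes and membrane proteins 8 of 10 were called (80%), with a median level of 1.67. The tautomerase Dct was at 7.26 ± 0.18, the glycoprotein Gpnmb at 6.16 ± 0.19 on 2 of its 4 probes, the copper transporter Atp7a at 4.88 ± 0.28 on 1 of 2 and Tyrp1 at 4.23 ± 0.10 on 1 of 3. Tyrosinase (Tyr), the first enzyme of melanin synthesis, was at 0.01, -0.46 and -0.71 (mean -0.39 ± 0.36), and Slc45a2, a transporter of the melanosome membrane, was at 0.19 ± 0.10 with 0 of its 3 probes called.

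**Figure D4:**
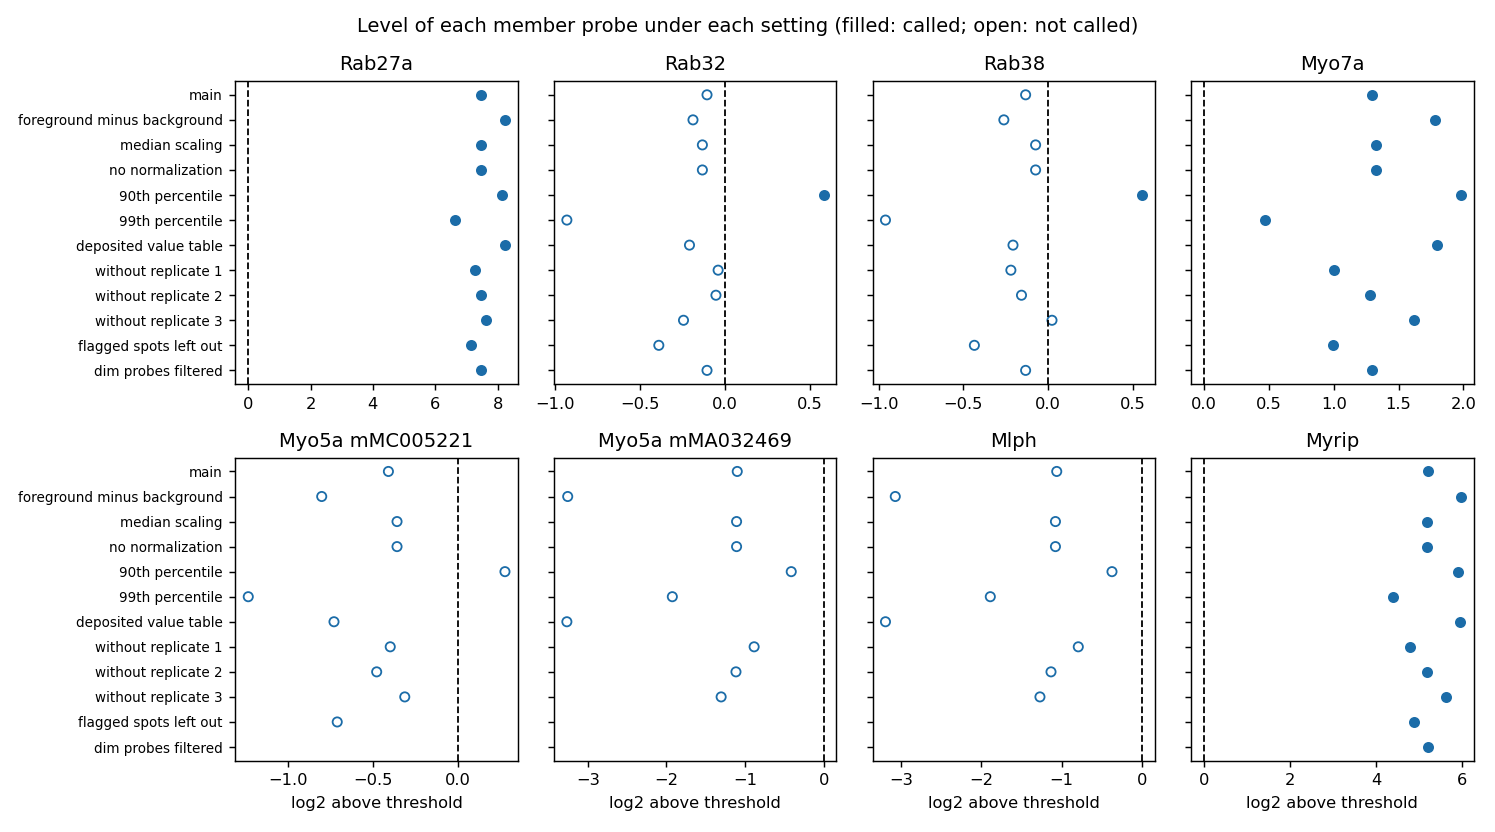
Normalised log2 level above the threshold (horizontal axis, own scale in each panel) of the 8 member probes under the main setting and 11 alternatives (vertical axis); filled points are called at an adjusted p under 0.05 and open points are not. Rab27a, Myrip and Myo7a are filled throughout, Rab32 and Rab38 are filled only with the 90th percentile of the control spots as the threshold, and both Myo5a probes and Mlph are open wherever they have a value.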

How the data were processed

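RNA of adult RPE was measured in 3 samples. The authors deposited 1 GenePix Pro 4.1.1.4 export per array with median foreground and background intensity, and the SD of background pixels, on a linear scale without normalization, plus a spot flag, a score given by the scanner software per the file headers. A series table, also deposited by the authors, gives a normalized intensity, which equalled foreground minus background intensity (values under 1 set to 1) times 2.17, 3.64 and 5.05 on replicates 1, 2 and 3, with column medians of 73.7, 98.2 and 116. No source used here names the method.

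Intensities were corrected in limma 3.58.1 (R 4.3.3) by normexp with an offset of 50, taken to log2 and quantile normalised over the mouse probes and the 94 mCN spots. No source used here describes the class mCN, on which each call rests. The log2 intensity minus the 95th percentile of the mCN spots of the array was tested with lmFit and eBayes in an intercept model, one-sided for higher values, with Benjamini-Hochberg adjustment over 35078 mouse probes, and probes were called at an adjusted p under 0.05. The fit was tested on simulated data. A gene was called when any of its probes was. Values of genes with several probes belong to the probe with the largest statistic. SDs are those of the level above the threshold. Accessions were named through the RefSeq gene table of GRCm38.p6 (23071 probes with 1 name, 0 with several, 12007 with none). Precision is limited by the number of arrays, and the p-values rest on these 3 preparations alone. In eBayes the variance of a probe also draws on that of all tested probes. With the 99th percentile, median scaling or no normalization it was practically the same for all probes. The SD of a single probe hardly entered its p-value in those settings. The threshold of each array was taken as known, so its own uncertainty is not in the p-values.

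Per related list, up to 4 called genes with the largest and up to 3 uncalled genes with the smallest statistic were named, and a few genes are not reported here. The members and lists were chosen with earlier results of these data known. Alternatives changed the background correction, normalization, threshold, source of values, flags, filter and arrays. The number of unused sample columns was 0.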

Additional observations from a re-analysis of the deposited data

How the results depend on the processing

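The calls of Rab27a, Myrip and Myo7a were kept in 12 of 12 settings. Myo7a was nearest to the limit at the 99th percentile of the control spots (level 0.47 ± 0.55, limma adjusted p = 0.0487), which it did not pass on replicate 3. That p-value rests on a variance common to all probes and not on the SD of Myo7a. The count of called member probes, and of member genes, was 3 in all settings tested in limma except the 90th percentile, where it was 5 of 8 probes and 5 genes. There Rab32 (0.58), Rab38 (0.55) and the first Myo5a probe (0.28, not called) turned from below to above the threshold, because the threshold itself was lower, and 13548 in place of 8931 mouse probes were called (38.6% and 25.5%). On replicate 1 alone, a setting chosen after seeing the corneal genes and without a test, 4 member probes passed, the 3 called and Rab38. The share of all mouse probes passing on replicate 1 alone was not computed, so this count has no background beside it. Leaving out 1 replicate gave 3 to 3 called probes and 3 to 3 genes, Rab38 at -0.22 to 0.022 (the highest without replicate 3) and 68 to 72 genes called over the related lists.

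The median SD of the called members was 0.33 in the main setting, 0.55 with the 99th percentile, 0.56 with the deposited table and 0.60 with median scaling or with no normalization, which gave equal levels above the threshold. It was 0.19 to 0.46 with 1 replicate left out, the lowest without replicate 3. The cause was not tested. Of the counts of the 7 related lists, 76 of 77 under alternatives were within 1.5 times, and the exception was the Usher list with the 99th percentile (0 called). Probe mMA032469 and the Mlph probe have no value where spots with a flag or dim probes are left out, and mMC005221 has none without dim probes. No paired analysis was possible because there is 1 group. The 5 control spots above the threshold on an array set the limit of detection, and Rab32 and Rab38 lay at that limit.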
